A study of Sus scrofa domesticus with 6 samples.

Results

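The genes described here are 32 molecular chaperones and their co-factors: 19 that work in the cytosol and nucleus, 2 of the mitochondrial matrix and 11 of the endoplasmic reticulum (ER). They were taken as a fixed list of gene names, out of 33025 genes listed in at least 1 of 6 single-cell RNA libraries of pig lung. Of the 32 names, 30 stood in all 6 libraries as written, and the other 2, HSPA1A and DNAJA1, were listed only by their Ensembl identifiers, so that all 32 could be measured. All values are given over the 23556 genes listed in all 6 libraries.

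The lungs came from a pig model of single-lung transplantation with prolonged cold ischemia. The control group was the donor's right lung (3 libraries, all cells of the digest, not sorted). The ischemia-reperfusion injury (IRI) group was the transplanted lung, kept cold for 24 hours before surgery and taken 8 hours after blood flow was restored, sorted by flow cytometry into CD45+ leukocytes (2 libraries, IRI CD45+) and CD45- cells (1 library, IRI CD45-). Both groups were digested with the same kind of enzyme kit. No control was sorted, so the effects of sorting and of injury cannot be told apart here, and the structural cells of the graft come from 1 library. The labels give no genotype, strain, age or sex. They speak of pairs of lungs, but do not say which libraries share an animal, so every p-value measures the spread between libraries. In comparisons with the lone IRI CD45- library that spread comes from the controls alone.

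Heat shock proteins bind unfolded proteins in the cytosol. The HSP70 proteins hold a client with the help of J-domain proteins (the DNAJ genes), nucleotide exchange factors (HSPH1, HSPA4, HSPA4L, BAG3) free it, and HSP90 with its co-chaperones (STIP1, AHSA1, FKBP4, CHORDC1) completes the folding of many signalling proteins. Most of these genes are driven by the transcription factor HSF1 when cells are stressed. The ER has its own set, led by the HSP70 protein BiP (HSPA5) and the HSP90 protein GRP94 (HSP90B1), with calreticulin (CALR) and the protein disulfide isomerases (PDIA3, PDIA4, PDIA6), and it is driven by the unfolded protein response. Secretory cells such as plasma cells and alveolar type 2 cells keep this second set high at rest.

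The 6 libraries held between 19098567 and 40647380 UMIs (unique molecular identifiers, each standing for 1 captured RNA). After filtering, 40812 cells were clustered without the 32 genes and their relatives, and clusters were called by marker genes ("T-like" and so on). Every control cell had at least 1001 UMIs, whereas the lowest cells of the graft libraries had 117, 74 and 115. UMIs were summed per cell class and library where a class had at least 20 cells, and a level is the number of UMIs of a gene per 1000000 UMIs of that class (UPM). It is a share of the class's RNA, so levels are compared between samples and classes and never between genes. Droplets of the IRI CD45- library carried much free RNA of alveolar type 2 cells: the surfactant gene SFTPC, which the other classes should lack, reached 34.5% of its AT2-like level in endothelial-like cells of that library, 31.5% in mural-like, 17.4% in NK-like and 6.11% in T-like cells. A class's change was also computed after that share of the AT2-like and secretory-like profile was subtracted.

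The HSP70 row needs a caution before its values. The identifier that carries HSPA1A is named HSP70.2 in the RefSeq table of the same build, Sscrofa11.1, with HSPA1A and HSPA1B as synonyms. It lies on chromosome 7, from 23925929 to 23927854, inside the span of its close relative HSPA1L, from 23909960 to 23938678. UMIs of such near-identical copies cannot be assigned to 1 gene with certainty, so HSPA1A stands here for the inducible HSP70 copies together. The mitochondrial pair HSPD1 and HSPE1, the chaperonin and its lid, are neighbours on chromosome 15 (101360355 to 101373498 and 101374019 to 101376146).

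In the control lung the summed cytosolic set was higher in T-like, NK-like and plasma-like cells than in endothelial-like, mural-like and fibroblast-like cells. Its 19 genes together took 18330, 17752 and 17944 UPM of T-like cells in the 3 controls, 18281, 18849 and 20624 of NK-like cells and 25234, 24552 and 27585 of plasma-like cells. In endothelial-like cells of the same libraries they took 7429, 10733 and 12066 UPM. Mural-like cells, named from smooth muscle and pericyte markers, held 11886, 11265 and 13202, and fibroblast-like cells 8556, 10090 and 8474. No control value of the T-like, NK-like or plasma-like class overlapped with one of these 3 structural classes. Other classes did not follow that order: dendritic-like controls held 11609, 11929 and 11976 UPM, inside the mural-like range, and ciliated-like controls held 24614 and 20029. The sum is led by HSPA1A, which alone was between 14191 and 16161 UPM in control plasma-like cells.

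In the graft the order of these classes differed. T-like cells held 5998 UPM of the cytosolic set after the CD45- sort, and 4999 and 6583 after the CD45+ sort, all below every control. Plasma-like cells held 4434 and then 4437 and 3854 UPM, and mast/basophil-like cells 9218, 6243 and 7238 against a control range of 30502 to 37489. Endothelial-like cells of the graft held 10198 UPM, inside their control range, and mural-like cells 9936, below theirs. T-like and plasma-like cells thus stood below endothelial-like and mural-like cells in the graft and above them in the controls, a description of these levels without a test.

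The summed ER set showed another pattern. In T-like cells it was 2578, 2814 and 2840 UPM in the controls and 2577, 2400 and 2892 in the graft libraries, so the groups overlapped. In plasma-like cells, the professional secretors, it was 15215, 14118 and 14094 UPM in the controls and 15838, 14130 and 15918 in the graft, again with overlap. NK-like cells lay above their control range of 2610 to 2880 UPM in all 3 graft libraries, at 4423, 4397 and 4503. Endothelial-like cells went from 2177, 2736 and 2811 UPM to 4666, and mural-like cells from 2881, 2631 and 3039 to 7003. After free RNA was subtracted the graft values were 3298 UPM in endothelial-like and 7016 in mural-like cells, both still above all controls.

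**Figure D1:**
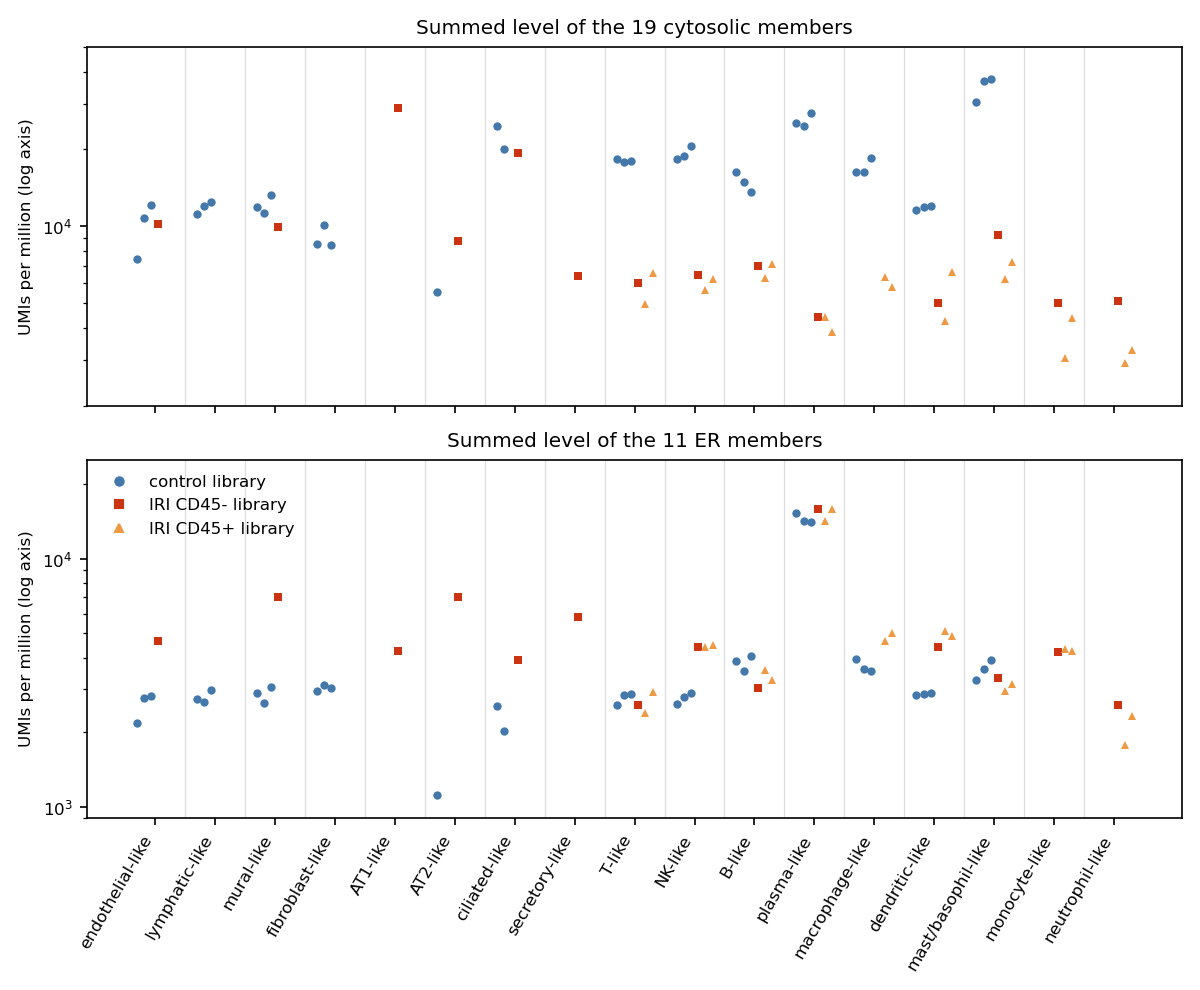
Summed level of the 19 cytosolic (top) and 11 ER (bottom) chaperone genes in UPM on a log axis, with 1 point per cell class and library. Cytosolic levels of the graft libraries lie below the controls in T-like (4999 to 6583 against 17752 to 18330), plasma-like and mast/basophil-like cells. They lie inside or near the controls in endothelial-like and mural-like cells, where the ER levels are above the controls.

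T-like cells were compared between the 3 controls and the 2 IRI CD45+ libraries with edgeR's quasi-likelihood test, adjusted by Benjamini-Hochberg over all 12639 genes tested. Of the 17 cytosolic members tested, 14 were lower in the graft and 0 higher, with a median log2 change of -0.83 against -0.06 over all genes. Of 10 ER members, 4 were higher and 0 lower, with a median of 0.14. The share of all genes called was 28.4% higher and 33.1% lower, so much of the transcriptome differed between these libraries. With library totals in place of TMM scaling, which moves the median of all genes to -0.35, 3 members were higher and 17 lower, where 19.4% of all genes were called higher and 41.8% lower. HSPB8, CRYAB and SERPINH1, genes of muscle and connective tissue, had too few UMIs to be tested.

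The inducible HSP70 showed the largest fall. HSPA1A was at 6234, 5812 and 6080 UPM in control T-like cells and at 50.4 and 179 UPM after the CD45+ sort, which is -5.47 ± 0.75 on the log2 scale (SE; edgeR adjusted p = 0.00791). The small heat shock protein HSPB1, which holds unfolding proteins without using ATP, was at 311, 292 and 274 UPM in the controls and 45.3 and 56.5 in the graft (-2.25 ± 0.14, edgeR adjusted p = 1.41e-09). In both genes the groups lay far apart with no overlap.

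The J-domain partners of HSP70 fell with it. DNAJA1 went from 2030, 1980 and 1885 UPM to 448 and 630 (log2 change -1.59 ± 0.14, edgeR adjusted p = 5.39e-08), and DNAJB1 from 963, 868 and 867 to 217 and 338 (-1.42 ± 0.16, edgeR adjusted p = 1.54e-06). HSPA8, the HSP70 protein that cells make at all times, went from 4155, 4041 and 4025 UPM to 1262 and 1945 (-1.07 ± 0.15, edgeR adjusted p = 1.75e-05). These genes separated the groups in every library. Among exchange factors, HSPH1 fell by 0.77 on the log2 scale, HSPA4 by 0.66 and BAG3 by 0.55, and among the HSP90 co-chaperones STIP1 fell by 0.89, FKBP4 by 0.84 and AHSA1 by 0.66. HSP90AB1, the constitutive cytosolic HSP90 itself, did not pass the test (2168, 2353 and 2325 UPM against 1842 and 2104, log2 change 0.07 ± 0.11, and -0.21 without TMM scaling, which did not pass either).

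The mitochondrial pair split. HSPD1, the chaperonin barrel, fell from 932, 936 and 1012 UPM to 237 and 336 (log2 change -1.47 ± 0.14, edgeR adjusted p = 1.75e-07). HSPE1, its lid, was at 704, 729 and 753 UPM against 522 and 674, and did not pass the test (-0.01 ± 0.12, edgeR adjusted p = 0.968). The 2 genes sit side by side on chromosome 15, yet only the HSPD1 change passed. Of the other cytosolic members, HSPA4L (-1.56), CACYBP (-0.83) and the J-domain protein DNAJB4 (-0.72) were also called lower. CHORDC1 and DNAJA4 did not pass, but were called lower without TMM scaling, at -0.46 and -0.54.

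Among ER members, the rise in T-like cells was small and left out BiP. HYOU1, an exchange factor of BiP, went from 33.7, 32.7 and 32.5 UPM to 43.8 and 57.1 (log2 change 0.89 ± 0.16, edgeR adjusted p = 0.000168). PDIA3, the disulfide isomerase that works with calreticulin on glycoproteins, went from 205, 242 and 228 UPM to 289 and 327 (0.73 ± 0.12, edgeR adjusted p = 9.23e-05), and its relative PDIA6 from 122, 152 and 158 to 161 and 217 (0.67 ± 0.15). HSPA5 was at 896, 912 and 933 UPM in the controls and at 759 and 876 in the graft, and did not pass the test (0.12 ± 0.11, edgeR adjusted p = 0.367), and its change was -0.16 without TMM scaling, again not called. The call of CALR, at a log2 change of 0.31 ± 0.13 and an edgeR adjusted p of 0.0496, did not hold under DESeq2, where the change was 0.26, or without TMM scaling, where it was 0.03.

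The T-like class was not made of the same clusters in both groups. Graft cells lay mostly in 1 cluster and control cells in others, and NK markers within T-like cells summed to 1473 to 1553 UPM in the controls and 452 to 465 in the IRI CD45+ libraries. When only the cluster with most IRI CD45+ T-like cells was summed, 12 of 15 cytosolic members tested were lower and 0 of 7 ER members were called, where 11.7% of all genes were higher and 14% lower, and CALR turned to -0.30. The cluster held 26, 49 and 33 control T-like cells against 1142 and 673 of the IRI CD45+ libraries. Only 2732 genes could be tested, so a missing call there may reflect few control UMIs. Within that cluster HSPA1A (-5.77), DNAJA1 (-2.43), DNAJB1 (-2.31) and HSPD1 (-1.91) were called lower, whereas PDIA3 (0.47) and PDIA6 (0.52) did not pass and HYOU1 could not be tested.

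T-like cells that were carried into the CD45- sort, 280 cells, gave a second comparison, against the same controls. Of 31 members tested, 11 were lower and 3 higher, where 15.8% of all genes were called lower and 11.6% higher. HSPA1A was at 203 UPM here (-4.77 ± 0.12, edgeR adjusted p = 5.92e-16), HSPB1 at 46.2 (-2.54 ± 0.21) and DNAJB1 at 225 (-1.88 ± 0.14). DNAJA1 fell by 1.62, HSPD1 by 1.58 and HSPA8 by 1.18 on the log2 scale, close to their changes in the CD45+ libraries, although both comparisons share the controls. PDIA3 was again higher (304 UPM, 0.56 ± 0.16, edgeR adjusted p = 0.0124). CRYAB and SERPINH1 were also called higher, from 11 and 12 UMIs, in a library where alveolar markers reached 7789 UPM in T-like cells against 38.9 to 274 in the controls. After free RNA was subtracted, SERPINH1 was at a change of 2.70 and CRYAB no longer had enough UMIs to be tested.

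NK-like cells paired a fall of the cytosolic set with a rise of the ER set. Against the IRI CD45+ libraries, 14 of 17 cytosolic members tested were lower and 0 higher (median log2 change -0.80), and both mitochondrial members were lower. Of 11 ER members, 8 were higher and 1 lower, with a median of 0.91 against -0.04 over all genes. Of all genes, 26.4% were called higher and 30.8% lower. The class also carried the T cell gene CD3E, at 340, 359 and 317 UPM in the controls and 399 and 377 in IRI CD45+. T-like cells held 372, 413 and 358 UPM of it, then 474 and 459. A single cluster held 88.8% and 87.0% of the IRI CD45+ NK-like cells, and 39.6% to 41.3% of the control ones. The part of CD3-positive cytotoxic cells in the NK-like changes was not tested.

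HSPA1A in NK-like cells was at 6580, 6350 and 7374 UPM in the controls, 392 in IRI CD45- and 48.1 and 102 in IRI CD45+. DNAJA1 went from 1741, 1840 and 2065 UPM to 342 and 402 (log2 change -2.31 ± 0.11, edgeR adjusted p = 9.11e-10) and HSPB1 from 303, 313 and 339 to 80.2 and 63.2 (-2.11 ± 0.12). The groups did not overlap in these genes. HSPA5 was at 931, 902 and 995 UPM in the controls and at 1910, 1750 and 1721 in the 3 graft libraries, a change of 0.91 ± 0.08 in the CD45+ pair (edgeR adjusted p = 5.99e-07). All 3 graft libraries lay above all controls. The AT2 markers of NK-like cells summed to 20.4 and 20.6 UPM in the CD45+ pair and to 22.9 to 29.0 in the controls. HSP90B1 rose from 419, 465 and 448 UPM to 776 and 900 (0.95 ± 0.09), HYOU1 from 38.9, 41.4 and 29.3 to 115 and 93.0 (1.55 ± 0.15), and PDIA6 from 136, 145 and 139 to 274 and 298 (1.05). The disulfide isomerases PDIA3 and PDIA4, calreticulin and SDF2L1, a partner of BiP, were also called higher. The lower ER member was the collagen chaperone SERPINH1, with 33 UMIs in the controls and 0 in the graft, at least 6.41-fold lower against a floor of 3 UMIs over the group. The fibroblast gene COL1A1 in NK-like cells was at 6.20, 28.3 and 62.1 UPM in the unsorted controls and at 0 and 0 in IRI CD45+. The part of free fibroblast RNA in the SERPINH1 call was not tested. Within 1 cluster that held most graft NK-like cells, 13 of 15 cytosolic members were lower and 8 of 10 ER members higher, where 23.7% of all genes were lower and 21.4% higher. The lower ER member there was DNAJB9 (-0.55, edgeR adjusted p = 0.0221).

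B-like cells were lower in most of the cytosolic set and had few calls in the ER set. Of 17 cytosolic members tested, 13 were lower and 0 higher (median log2 change -1.25 against -0.01 over all genes, with 23.8% of all genes called lower and 20.4% higher). HSPA1A went from 3514, 3066 and 2302 UPM to 20.4 and 25.6 (-7.00 ± 0.25, edgeR adjusted p = 9.63e-12), and stood at 258 in IRI CD45-. BAG3, which couples HSP70 to autophagy, went from 238, 219 and 211 UPM to 55.9 and 45.1 (-2.14 ± 0.17, edgeR adjusted p = 1.13e-08), DNAJA1 fell by 2.43 and HSPA8 by 1.45. Of 10 ER members, PDIA3 (0.67) and HYOU1 (0.79) were higher, and HERPUD1 (-0.52) and DNAJB9 (-1.05), which serve the disposal of misfolded ER proteins, were lower.

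Plasma-like cells held the highest control levels of HSPA1A among lymphoid classes and the largest fall. It was at 14752, 14191 and 16161 UPM in the controls and at 39.5 and 31.0 in IRI CD45+, with 165 in IRI CD45-. The log2 change was -8.86 ± 0.14 (edgeR adjusted p = 9.44e-17), from 171546 UMIs in the controls to 64 in the graft. Of 16 cytosolic members tested, 14 were lower and 0 higher, with a median of -1.73 against -0.08 over all genes, where 20.7% of all genes were called lower and 15% higher. DNAJA1 fell by 3.10, DNAJB1 by 3.00 and HSPA8 by 1.80 on the log2 scale. The ER set, which makes antibody secretion possible, mostly did not pass: HSP90B1 was at 5713, 5362 and 5162 UPM in the controls and 4715 and 6096 in the graft, and HSPA5 at 2688, 2316 and 2290 against 2940 and 2459. HYOU1 rose from 146, 128 and 131 UPM to 286 and 288 (0.96 ± 0.14, edgeR adjusted p = 6.94e-05) and PDIA3 by 0.39, and DNAJB9 fell by 0.42.

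**Figure D2:**
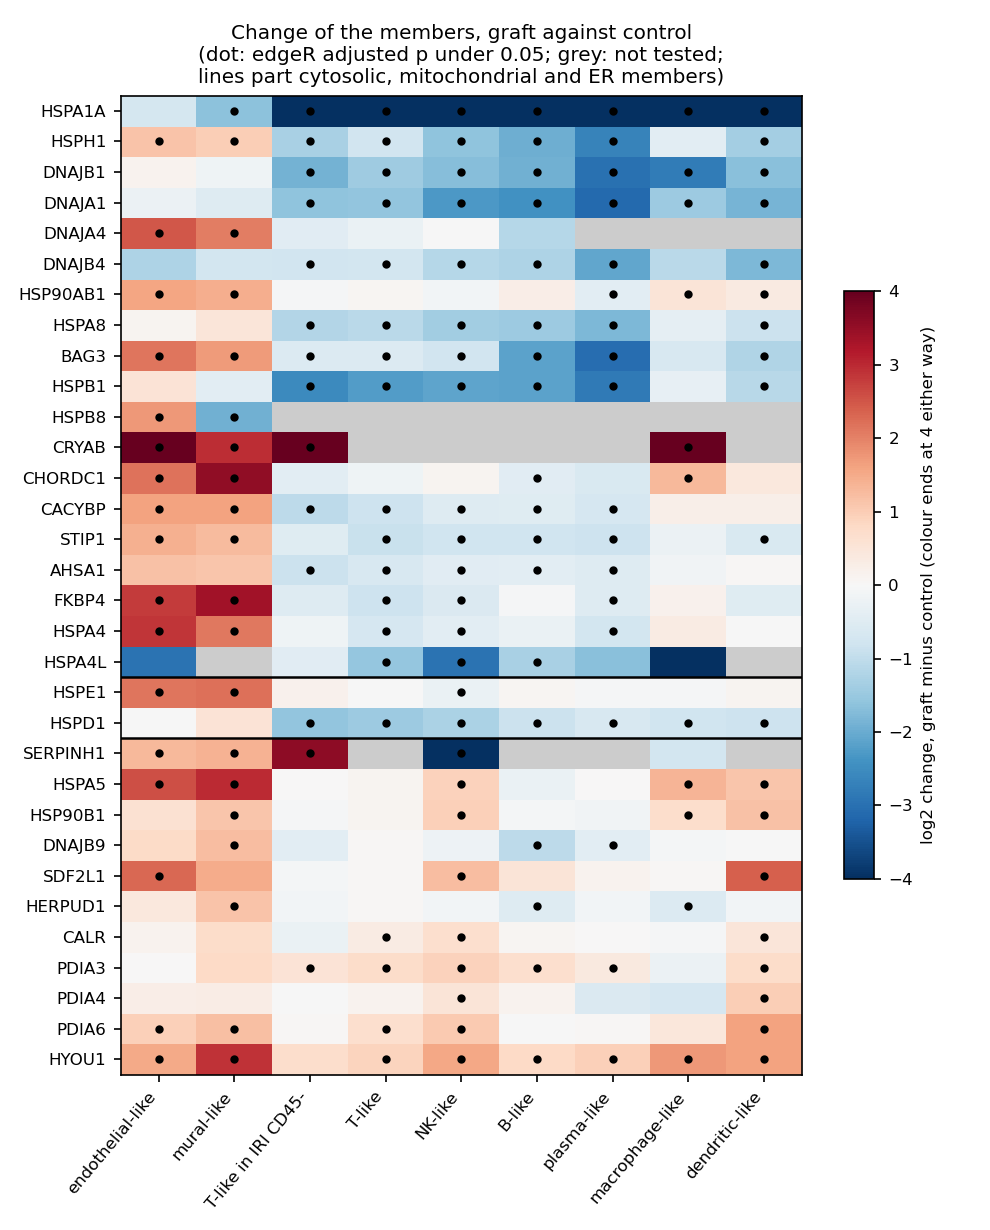
Log2 change from control to graft for each of the 32 genes (ordered by compartment) in 9 comparisons, with dots for an edgeR adjusted p under 0.05 and grey for genes not tested; colours end at 4. Cytosolic genes are mostly lower in the lymphoid and dendritic-like columns (14 of 17 called lower in T-like and NK-like cells) and mostly higher in the endothelial-like and mural-like columns.

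Myeloid cells were read in the same way. In dendritic-like cells, 9 of 15 cytosolic members tested were lower and 1 higher (HSP90AB1, 0.35), and 8 of 10 ER members were higher and 0 lower, with medians of -0.85 and 1.06 against -0.10 over all genes (20.9% of all genes lower, 15.6% higher). PDIA6 went from 164, 182 and 177 UPM to 533 and 488 (1.59 ± 0.13, edgeR adjusted p = 5.69e-06), HSPA5 from 778, 783 and 817 to 1798 and 1522 (1.11 ± 0.10), and HSP90B1 from 511, 489 and 483 to 1009 and 1117 (1.16 ± 0.11). SDF2L1 rose by 2.40 ± 0.29. HSPA1A was at 2505, 3013 and 3122 UPM in the controls and at 8.07 and 135 in the graft.

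Macrophage-like cells showed a mixed picture with few cells, 37 and 32 in the IRI CD45+ libraries. Of 30 members tested, 6 were higher and 5 lower, where 10.3% of all genes were called higher and 15% lower, and without control replicate 2 the number called was 7, where 9.22% of all genes were higher and 12.6% lower. HSPA1A was at 8417, 8366 and 9871 UPM in the controls and at 518 and 106 in the graft (-4.69 ± 0.79, edgeR adjusted p = 0.0244). DNAJB1 fell by 2.80 and DNAJA1 by 1.44. HSPA5 rose from 874, 758 and 714 UPM to 1768 and 1949 (1.35 ± 0.17, edgeR adjusted p = 0.000211) and HYOU1 by 1.75, whereas HERPUD1 fell by 0.56.

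In endothelial-like cells of the graft the called cytosolic members were higher, where those of the lymphoid classes of the IRI CD45+ libraries were lower. The called genes were only partly the same. BAG3, CACYBP, FKBP4, HSPA4, HSPH1 and STIP1 were called higher in endothelial-like and lower in T-like cells. HSPA1A, HSPA8, DNAJA1 and DNAJB1, lower in T-like cells, were not called in endothelial-like cells. Against the 3 controls, 17 of 32 members were higher in the IRI CD45- library and 0 lower, where 17.6% of all 7893 genes tested were called higher and 13.2% lower. By compartment these were 11 of 19 cytosolic, 1 of 2 mitochondrial and 5 of 11 ER members, with median log2 changes of 1.43 in the cytosolic and 0.78 in the ER set against -0.09 over all genes. The lone graft library is assumed to vary like the controls. DESeq2, which called 7.61% of all genes higher and 5.06% lower, called 10 of them: BAG3, CACYBP, CHORDC1, CRYAB, FKBP4, HSP90AB1, HSPA4, HSPE1, HSPA5 and SERPINH1.

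The small heat shock protein CRYAB, known from the lens and from muscle, changed most. It was at 74.5, 23.3 and 67.8 UPM in the controls and at 678 in the graft (3.97 ± 0.37, edgeR adjusted p = 2.88e-15). The exchange factor HSPA4 went from 39.4, 46.6 and 58.6 UPM to 279 (2.87 ± 0.39, edgeR adjusted p = 1.47e-09), and BAG3 from 136, 229 and 282 to 750 (2.15 ± 0.35, edgeR adjusted p = 3.02e-07). In each the graft lay well above all controls. After free RNA was subtracted their changes were 4.46, 2.85 and 2.41. That subtraction used AT2-like and secretory-like RNA only, and CRYAB was also high in AT1-like and fibroblast-like cells of that library. Its log2 change was 5.97 in NK-like cells of the same library. The part of free RNA from other classes in the CRYAB change was not tested. FKBP4, an HSP90 co-chaperone of steroid receptors, went from 39.4, 62.1 and 34.8 UPM to 238 (2.80 ± 0.40, edgeR adjusted p = 1.04e-08), but it stood at 667 UPM in AT2-like cells of that library, and the subtraction removed all of its graft UMIs and turned the change to -7.15.

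Most of the HSP90 group rose as well. HSP90AB1 went from 631, 1164 and 891 UPM to 2048 (1.57 ± 0.33, edgeR adjusted p = 7.19e-05). CHORDC1 rose by 2.19, CACYBP, an adaptor to protein degradation that is related to HSP90 co-chaperones, by 1.60, and STIP1, which hands clients from HSP70 to HSP90, by 1.43. AHSA1, which speeds up HSP90, did not pass (13.1, 77.6 and 56.8 UPM against 89.0). HSPH1 rose by 1.13, DNAJA4 by 2.48 and HSPB8, the partner of BAG3, by 1.73. The HSP70 arm did not rise: HSPA1A was at 3522, 4412 and 5791 UPM in the controls and at 2137 in the graft (-0.72 ± 0.34, edgeR adjusted p = 0.0986). HSPA8 was at 1345, 1812 and 2271 UPM against 1487, DNAJB1 at 526, 481 and 605 against 451, and DNAJA1 at 412, 881 and 871 against 469, and none of these passed. With library totals in place of TMM scaling, which moves the median of all genes to -0.48, 12 members were higher and 2 lower, where 11.9% of all genes were higher and 20.8% lower, and the lower members were HSPA1A (-1.11) and DNAJB4 (-1.62). HSPA4L had no usable contrast here, since control 2 held 210 UPM of it and the other libraries between 3.67 and 6.63.

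In the mitochondria of endothelial-like cells the lid rose without a called change of the barrel. HSPE1 went from 188, 229 and 225 UPM to 735 (2.16 ± 0.34, edgeR adjusted p = 1.43e-07), and HSPD1 was at 158, 361 and 387 UPM against 235, a change near 0 with an SE of 0.39 (edgeR adjusted p = 0.996). T-like cells showed the reverse, a fall of HSPD1 with no called change of HSPE1. In both classes the log2 change of HSPE1 was above that of HSPD1, a difference between genes that was not tested.

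The ER set of endothelial-like cells rose in part. HSPA5 went from 350, 481 and 586 UPM to 2160 (2.56 ± 0.32, edgeR adjusted p = 1.34e-10). AT2-like cells of the same library held 4218 UPM of it, and after subtraction the change was 1.35 (edgeR adjusted p = 0.00192). HYOU1 went from 30.7, 38.8 and 56.8 UPM to 97.5 (1.52 ± 0.45), SERPINH1, which folds the collagens of the vessel wall, from 175, 221 and 240 to 401 (1.29 ± 0.35), and PDIA6 rose by 0.94. SDF2L1 rose by 2.31, from 10 to 38 UMIs. After free RNA was subtracted PDIA6 was at 0.73 and did not pass (edgeR adjusted p = 0.134), SDF2L1 had too few UMIs to be tested, and 3 of 10 ER members tested were higher, where 15.9% of all genes were. HSP90B1, at 482, 563 and 541 UPM against 618, did not pass (0.61 ± 0.35, edgeR adjusted p = 0.183), nor did CALR, PDIA3, PDIA4, HERPUD1 or DNAJB9.

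Other measures moved with this comparison. AT2 markers in endothelial-like cells summed to 42.7 to 61.3 UPM in the controls, with 4 to 6 of 9 detected, and to 44705 in the graft, with 9 of 9. Lymphatic markers summed to 299 to 723 UPM in the controls and 4430 in the graft, and the 12 blood endothelial markers to 7628 to 9711 and 4426, all of them detected in every library. Control and graft cells lay in different clusters, 10 and 27. Without the cells that held a UMI of a lymphatic gene, 13 members were higher and 0 lower, where 15.1% of all genes were higher and 9.97% lower. With lymphatic-like cells added, 16 were higher and HSPA1A (-0.78) and DNAJB4 (-1.48) lower, where 18.7% of all genes were higher and 15.6% lower.

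**Figure D3:**
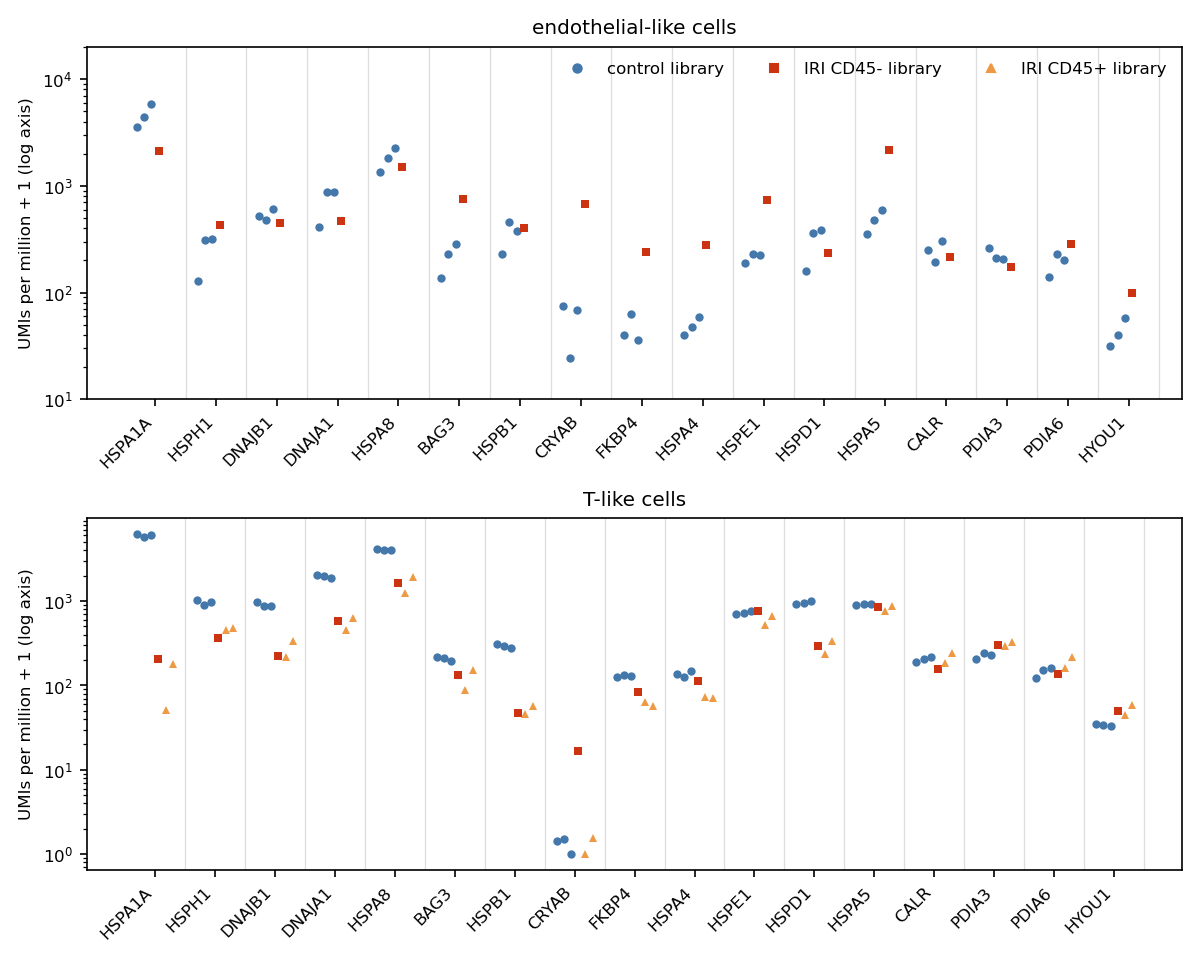
Level of 17 chaperone genes (UPM plus 1, log axis) in each library, in endothelial-like (top) and T-like (bottom) cells. HSPA5, CRYAB, HSPA4 and BAG3 of the graft library lie above all controls in endothelial-like cells, and HSPA1A, HSPB1 and DNAJA1 of all graft libraries lie below all controls in T-like cells.

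Mural-like cells, named from smooth muscle and pericyte markers, were compared in the same way. In the graft 99.8% of them lay in cluster 23, led by BDKRB2, WIF1 and TNC. In the controls 58.0% to 62.7% lay in cluster 16, led by ACTG2, ACTA2 and MYH11. The name is thus less sure for the graft cells. Of 31 members tested, 18 were higher and 2 lower, where 19.2% of all genes were called higher and 11.7% lower. These were 10 higher and 2 lower of 18 cytosolic and 7 higher of 11 ER members, with medians of 1.18 and 1.19 against -0.06 over all genes. Without control replicate 2 the number called was 13, where 15.1% of all genes were higher and 7.75% lower. Without TMM scaling, which moves the median of all genes to -0.56, 11 members were higher and 4 lower, where 711 of the 6392 genes tested were higher and 1214 lower (19%).

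HSPA5 led the ER set, from 474, 625 and 723 UPM to 3454 (2.98 ± 0.33, edgeR adjusted p = 2.46e-12), and 2.77 after free RNA was subtracted. HYOU1 went from 21.2, 32.9 and 29.8 UPM to 153 (2.89 ± 0.50, edgeR adjusted p = 1.74e-06), and HSP90B1 from 687, 471 and 690 to 963 (1.11 ± 0.35). Beyond the genes called in endothelial-like cells, DNAJB9 (1.22) and HERPUD1 (1.15), both well-known targets of the unfolded protein response, were called here. Without TMM scaling DNAJB9 (0.72), HERPUD1 (0.66), HSP90B1 (0.63) and PDIA6 (0.71) did not pass. Of the ER set HSPA5 (2.48), HYOU1 (2.39) and SERPINH1 (0.91) were called with that scaling. In the cytosolic set, CRYAB went from 92.0, 159 and 149 UPM to 749 (2.94 ± 0.36, edgeR adjusted p = 1.12e-10) and CHORDC1 from 21.2, 5.48 and 24.4 to 155 (3.56 ± 0.54, edgeR adjusted p = 6.35e-08). FKBP4 rose by 3.36, and by 1.06 without passing the test after subtraction.

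The lower pair in mural-like cells were HSPA1A and HSPB8. HSPA1A was at 5472, 5032 and 5548 UPM in the controls and at 1249 in the graft (-1.63 ± 0.38, edgeR adjusted p = 0.000443), and HSPB8 at 99.1, 98.7 and 37.9 against 13.9 (-1.93 ± 0.66, edgeR adjusted p = 0.0176). After free RNA was subtracted HSPB8 was at -1.47 and did not pass (edgeR adjusted p = 0.0655). The inducible HSP70 was thus lower in the graft while 10 of the 18 cytosolic members tested were higher in the same cells. Its J-domain partners were not all among these. Without TMM scaling DNAJA1 (-1.02) and DNAJB4 (-1.22) were called lower, DNAJB1 was at -0.67 and DNAJA4 at 1.54. AT2 markers summed to 16.4 to 89.3 UPM in the controls and 41341 in the graft, and the 9 mural markers to 15256 to 20069 and 4102. The 10 fibroblast markers summed to 6711 to 9846 UPM in the controls and 8485 in the graft, the fibroblast gene PDGFRA was at 14.2, 0 and 24.4 UPM against 127, and the smooth muscle gene ACTA2 at 4977, 7362 and 5960 against 1073. Graft cells lay in cluster 23, which held 37.3% to 42.0% of the control cells. The part of fibroblasts in the mural-like changes was not tested. In a finer clustering (Leiden resolution 2.0 in place of 1) the class held 589 graft cells in place of 918. There 19 of 31 members were higher and 2 lower, where 20.3% of all genes were higher and 14.6% lower. HSPA5 was at 2995 UPM in these graft cells (2.73, edgeR adjusted p = 1.76e-18) and CRYAB at 273 (1.36, edgeR adjusted p = 0.000421).

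Fibroblast-like cells, which build the collagen matrix, had 9 cells in the IRI CD45- library at the resolution used throughout, too few to compare. At the finer resolution they had 124, against 239, 1082 and 1429 in the controls. Of 32 members tested, 21 were higher and 3 lower, where 13% of all 12615 genes were called higher and 15.2% lower. These were 11 higher and 3 lower of 19 cytosolic, 1 higher of 2 mitochondrial and 9 higher of 11 ER members, with medians of 1.11 in the cytosolic and 1.01 in the ER set against -0.73 over all genes.

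CRYAB was at 59.5, 52.0 and 31.0 UPM in these fibroblast-like controls and at 2599 in the graft (6.09 ± 0.33, edgeR adjusted p = 1.3e-06). HSPA5 went from 570, 565 and 547 UPM to 4162 (3.16 ± 0.20, edgeR adjusted p = 7.75e-08), and HYOU1 from 32.5, 28.9 and 24.8 to 207 (3.16 ± 0.27, edgeR adjusted p = 9.91e-07). HSPA1A was lower, at 3653, 3870 and 3313 UPM against 791 (-1.93 ± 0.28, edgeR adjusted p = 0.000128), as were its J-domain partners DNAJA1 (-1.06) and DNAJB4 (-1.64). In the same cells the AT2 markers summed to 32.5 to 274 UPM in the controls and 13028 in the graft, and the fibroblast markers to 65464 to 85688 and 26113, while PDGFRA was at 172 to 179 and 181. The part of free RNA in these changes was not tested.

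The difference in change between a structural and a lymphoid class was tested itself, within libraries. For each library the log2 level in T-like cells was taken from that in endothelial-like cells, and the IRI CD45- library was set against the 3 controls with limma, over 11873 genes, whose median difference was 0.24. Of 31 members tested, 10 had a larger change in endothelial-like than in T-like cells and 0 a smaller one, where 1.69% of all genes were called in that direction and 1.52% in the other. With a prior count of 0.5 in place of 2, or without control replicate 3, limma called 0 members and 0 of all genes, with 2421 and 1436 genes at an unadjusted p under 0.05, so these calls depend on both choices.

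HSPA1A had the largest difference, at a log2 of 4.0 ± 0.36 (limma adjusted p = 0.0122). Its level in endothelial-like cells was below that in T-like cells by 0.54 on the log2 scale in the controls and above it by 3.46 in the graft. The gene was not called higher in endothelial-like cells, and it was called lower in T-like cells. HSPB1 (3.07 ± 0.49, limma adjusted p = 0.0241) and DNAJB1 (1.93 ± 0.33, limma adjusted p = 0.0279), too, were called lower in T-like and not called in endothelial-like cells. FKBP4 (3.22), HSPA4 (3.00), BAG3 (2.70), CHORDC1 (2.61), CACYBP (2.55) and HSPE1 (1.90) combined a called rise in endothelial-like cells with a fall or no called change in T-like cells. CRYAB, which changed most in endothelial-like cells, had a difference of 0.16 ± 0.99 and was not called.

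Of the ER set only HSPA5 was called (2.5 ± 0.37, limma adjusted p = 0.0241). HYOU1 (0.86), PDIA6 (0.86), HSP90B1 (0.57), CALR (0.37) and PDIA3 (-0.62) were not. With mural-like in place of endothelial-like cells HSPA1A was the 1 member that passed (3.13, limma adjusted p = 0.0261), where 0.0168% of all genes were called in that direction and 0 genes in the other. With B-like in place of T-like cells 14 members passed, where 2.44% and 1.51% of all genes were called in the 2 directions.

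**Figure D4:**
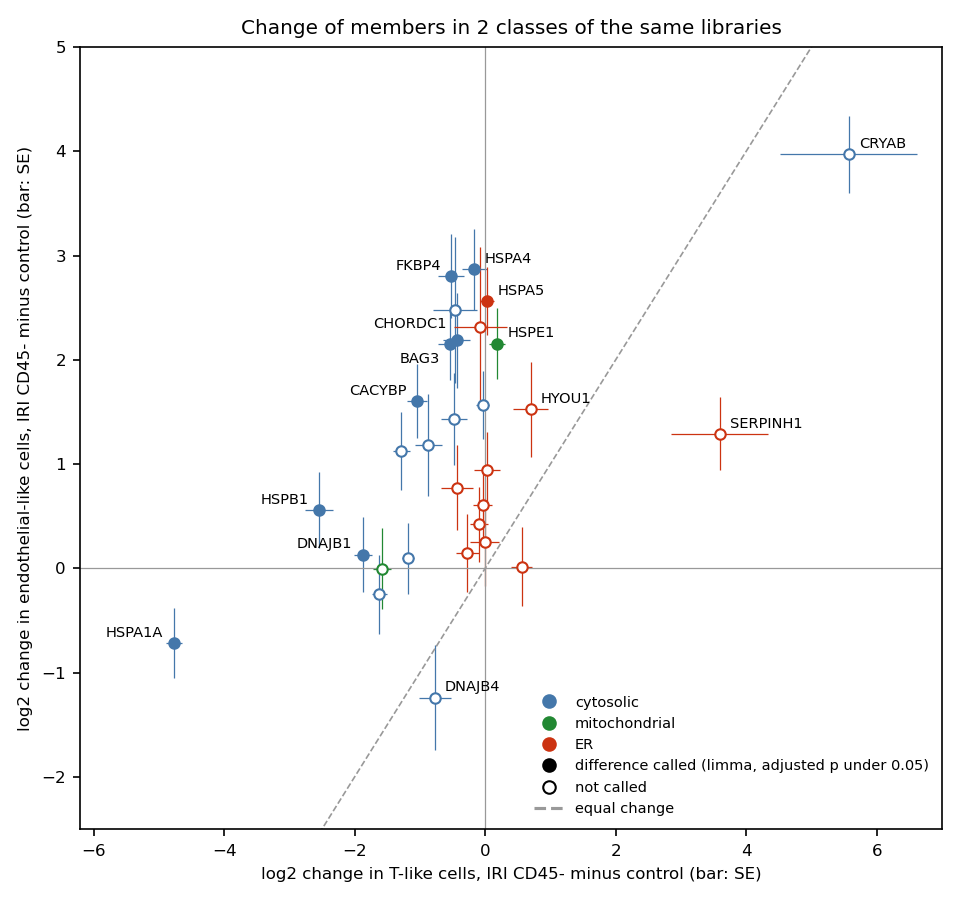
Log2 change from control to the IRI CD45- library in T-like cells (horizontal) and endothelial-like cells (vertical) for each gene, with standard errors; filled points have a called difference by limma, and HSPA4L is left out for its large error. Cytosolic genes such as BAG3 and HSPA4 lie above 0 in endothelial-like and below or near 0 in T-like cells, and HSPA1A lies far to the left at -4.77.

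HSPA1A and HSPA5 can be followed over all 17 classes as levels, without a test where a class had too few control cells. HSPA1A was highest in mast/basophil-like controls (15060, 20196 and 19686 UPM), followed by plasma-like controls, whose range overlapped with that, and ciliated-like controls (13220 and 11950). In the graft the highest levels were 13253 UPM in AT1-like and 4331 in ciliated-like cells of the IRI CD45- library, whereas 2 other epithelial classes, AT2-like at 1490 and secretory-like at 1014, lay below endothelial-like cells at 2137. In mast/basophil-like cells it was at 1366, 163 and 549 UPM. Graft monocyte-like cells held 385, 6.99 and 200 UPM and neutrophil-like cells 879, 45.9 and 71.7, and in both the CD45- library was the highest. The IRI CD45- library stood above both IRI CD45+ libraries for HSPA1A in all 8 classes measured in the 3 graft libraries; SFTPC in these classes of the CD45- library was between 4.23% and 17.7% of its AT2-like level.

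Some members were high in few classes of the controls. DNAJA4, a J-domain partner of HSP70, was at 484 and 199 UPM in ciliated-like controls and 330 in graft ciliated-like cells, and at most 51.8 in every other class of the controls. HSPA4L was at 130 and 57.7 UPM in the same ciliated-like controls. SERPINH1 was at 390, 485 and 469 UPM in fibroblast-like controls, the class with the most collagen, and at 328 in graft AT1-like cells. HSPB8 was at 58.6, 71.2 and 43.5 UPM in lymphatic-like controls, a range that overlapped with that of mural-like controls, and at most 2.24 in control lymphoid and myeloid classes. HSP90AB1 and HSPA8, which most cells make without stress, were detected in every class and library, HSPA8 at 5627, 4566 and 5534 UPM in mast/basophil-like controls and 1229, 1092 and 1247 in the graft.

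HSPA5 ranged lower in control structural cells (fibroblast-like 620, 569 and 550 UPM, lymphatic-like 615, 600 and 635) than in control mast/basophil-like cells (1210, 986 and 1133). In the graft it reached 4218 UPM in AT2-like cells, against 229 in the lone control with enough such cells, 20 of them. It stood at 2511 UPM in secretory-like, 2338 in AT1-like and 1874 in ciliated-like cells, where the controls held 922 and 410. Monocyte-like cells held 1882, 1725 and 1676 UPM and neutrophil-like cells 937, 430 and 650. AT1-like cells also held 1147 UPM of BAG3 and 1433 of CRYAB, and ciliated-like cells 1581 of BAG3 against 177 and 237 in the controls.

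**Figure D5:**
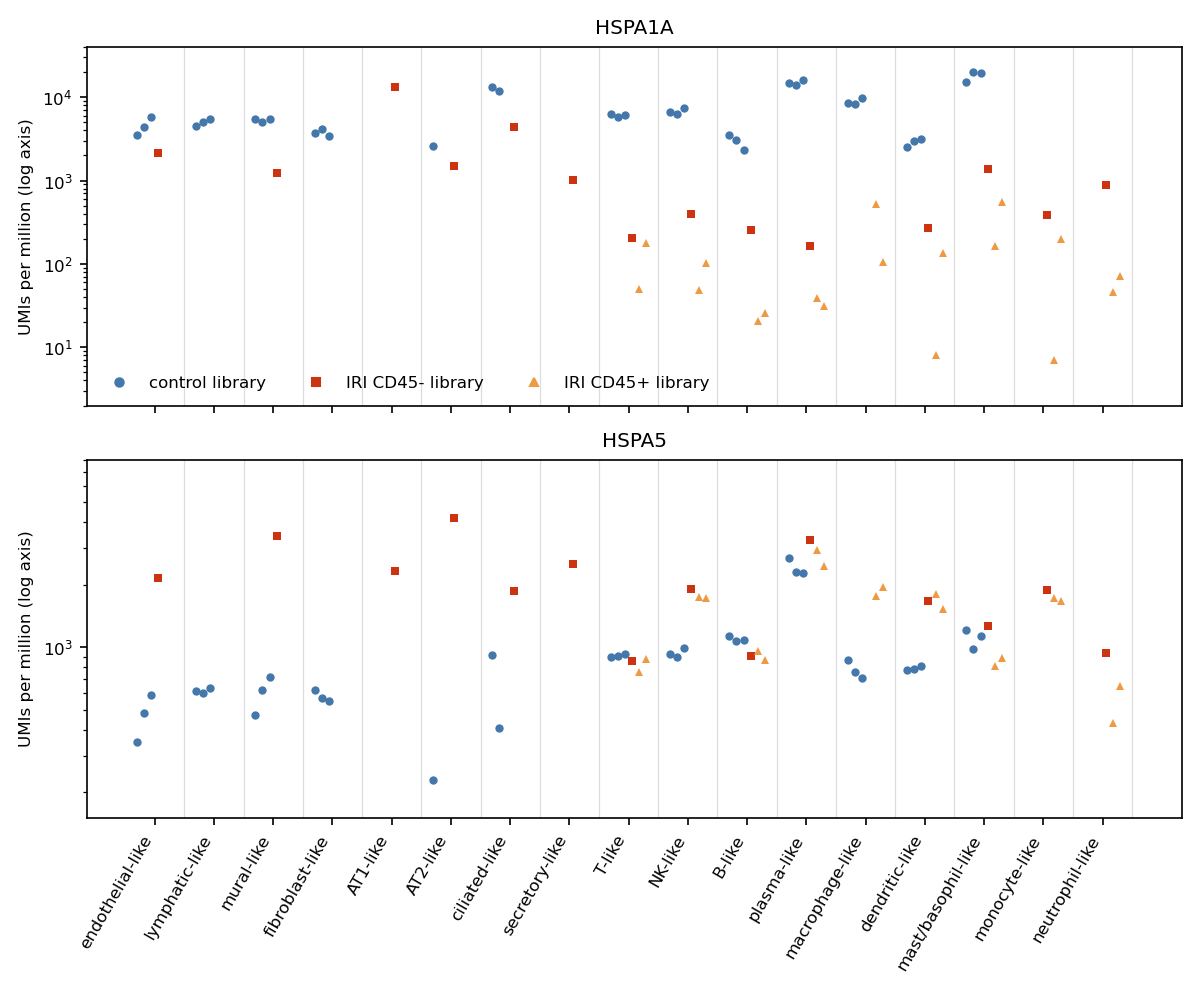
Level of HSPA1A and HSPA5 in UPM (log axis) in 17 cell classes, with 1 point per library with at least 20 cells of the class. In leukocyte classes with control levels, HSPA1A is below the controls in every graft library shown, while AT1-like graft cells hold 13253. Monocyte-like and neutrophil-like cells have no control level, and macrophage-like cells none in IRI CD45-. HSPA5 of the graft is at or above the controls in most classes and highest in AT2-like cells, at 4218.

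Relatives of the 32 genes, listed by pathway, were read beside them. The TRiC chaperonin and its helper prefoldin, which fold actin and tubulin, went with the structural rise: 11 of 13 genes were higher and 0 lower in endothelial-like cells (edgeR), led by CCT8 (2.18), CCT3 (2.13) and PFDN2 (1.82), and 9 of 13 in mural-like cells. Of all genes, 17.6% were higher in endothelial-like and 19.2% in mural-like cells. In T-like cells 2 of 13 were higher and 5 lower, and in NK-like cells 2 were higher and 4 lower. Over all genes 33.1% were lower in T-like and 30.8% in NK-like cells, and 28.4% and 26.4% higher. The lower counts of these 2 classes were thus near the share over all genes.

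The 28 ER companions are folding and quality-control genes outside the 32. In NK-like cells 22 of 28 were higher and 0 lower (26.4% of all genes higher), led by DNAJC3 (1.73), MANF (1.33) and CRELD2 (1.98), and in dendritic-like cells 17 of 28 and 0 (15.6%). In T-like cells 14 were higher and 1 lower (28.4%), with EDEM1 (1.23) and CANX (0.95), and in plasma-like cells 12 and 2 (15%). In endothelial-like cells 4 of 26 tested were higher and 0 lower, SSR1 (1.48) and MANF (1.55) among them, and in mural-like cells 6 of 25 and 1, with MANF at 2.93. These shares are near those over all genes in the same comparisons, 17.6% and 19.2%.

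Among cytosolic companions, HSPA6, another inducible HSP70, was at log2 changes of -4.64 in T-like, -5.47 in NK-like and -8.44 in plasma-like cells, all called lower. Of that list, 6 of 21 tested were higher and 5 lower in T-like cells (28.4% and 33.1% of all genes). In NK-like cells these were 6 of 20 and 6 (26.4% and 30.8%), and in plasma-like cells 3 of 20 and 5 (15% and 20.7%). The list as a whole thus did not share the fall of the cytosolic members in these classes. In endothelial-like cells its median log2 change was 0.38, against 1.43 for the cytosolic members. The HSP90 companion HSP90AA1 was listed in only 3 libraries and was not used here. Of the 9 regulators, ATF4, a transcription factor of the integrated stress response, rose by 2.48 in endothelial-like, 2.59 in mural-like and 0.68 in T-like cells, and XBP1, a factor of the unfolded protein response, by 0.57 in T-like cells.

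Over the 68 sums of class and library, levels of the ER members varied together more than those of the cytosolic members. The median Pearson correlation was 0.596 between pairs of ER members, 0.339 between pairs of cytosolic members and -0.0447 between a cytosolic and an ER member, and 0.496 between HSPE1 and HSPD1. These sums share libraries, depth and free RNA, so the values describe the data and carry no test.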

How the data were processed

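Single-cell RNA libraries of 6 pig lung samples were prepared with a DNBelab C Series HT kit, per the labels' protocols. The authors deposited 1 sparse matrix per library of whole-number UMI counts per gene and cell, written by the program PISA per the file headers; no aligner or gene annotation is named in what was used here. The submitters' processing notes name R 4.2.2, the build Sscrofa11.1 and Seurat 5.5.3. The deposited counts carry no normalization.

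Cells with at least 500 UMIs and 200 genes and at most 20% mitochondrial UMIs were kept (40812 cells) and clustered with scanpy 1.11.5 (2000 variable genes, 30 components, 15 neighbours, Leiden resolution 1), without 110 chaperone genes. Clusters were named where a marker list had a mean log2 fold of at least 1 with 3 markers above 2-fold; these limits were set after the clusters were seen, and 19 of 54 clusters and sub-clusters stayed unnamed. The doublet caller marked 5 cells or fewer in each library, so it did not work, and doublets were left in (an alternative took out the top 6% of scores). Cell names are running numbers, so names that libraries share say nothing about shared cells. Free RNA was estimated from SFTPC and SCGB1A1. Control libraries hold 85.8% to 89.1% of their UMIs in genes listed in all 6 libraries, graft libraries 98.8% to 99.9%.

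Summed UMI counts were tested with edgeR 4.0.16 (TMM, quasi-likelihood, in R 4.3.3) over all genes, at an adjusted p (Benjamini-Hochberg) of 0.05. An interval or SE covers the spread between libraries, which is that of the controls alone where the graft has 1 library. The difference between classes used limma 3.58.1 on log2 values with a prior count of 2. DESeq2 1.42.0 was an alternative. Both scripts were tested on simulated data. The 32 genes, the companion lists and the tests were chosen with earlier results of these data known. Members with values in every library are, in endothelial-like and T-like cells, up to 6 with the smallest p in each direction, and up to 4 in other classes; further genes and the 17 classes of HSPA1A and HSPA5 were named after their values were seen. A search of promoter motifs was planned and not made, since promoter sequences were not used here.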

Additional observations from a re-analysis of the deposited data

Results flagged for a closer look

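For 10 genes the change from control to the IRI CD45- library differed between endothelial-like and T-like cells by a test of the difference itself (limma on differences within libraries, adjusted over all genes). The difference, on the log2 scale and larger in endothelial-like cells for each, was 4.0 for HSPA1A, 3.22 for FKBP4, 3.07 for HSPB1, 3.00 for HSPA4, 2.70 for BAG3, 2.61 for CHORDC1, 2.55 for CACYBP, 2.5 for HSPA5, 1.93 for DNAJB1 and 1.90 for HSPE1. It rests on 1 graft library. After free RNA was subtracted it turned to -4.13 for FKBP4 and was 1.70 for HSPA5. For the other flagged genes it then lay between 1.63 (DNAJB1) and 4.94 (HSPA1A).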

How the results depend on the processing

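The number of members called in endothelial-like cells was 17, and 10 with DESeq2. In mural-like cells it was 20, and 13 both with sums thinned to the smallest and without control replicate 2. After thinning, 510 of all 3961 genes tested were higher and 473 lower. In macrophage-like cells the number of members called was 11, and 7 without control replicate 2. The difference between endothelial-like and T-like cells, with 10 members called, gave 0 with a prior count of 0.5 and 0 without control replicate 3. It gave 1 with mural-like in place of endothelial-like cells, and 22 with a joint edgeR fit. That fit used the T-like sums of the IRI CD45+ libraries in place of that of the IRI CD45- library. Its graft classes thus came from different libraries and sorts, without pairing within libraries, so it is another contrast. In that joint fit 1584 of all 15401 genes tested had a larger change in endothelial-like cells and 1336 a smaller one. The cause of these shifts was not tested. Leaving out 1 library at a time, the count ranged from 12 to 18 in endothelial-like, 13 to 24 in mural-like, 16 to 19 in T-like, 12 to 14 in T-like cells of IRI CD45-, 22 to 25 in NK-like, 14 to 19 in B-like, 14 to 18 in plasma-like, 7 to 10 in macrophage-like and 15 to 20 in dendritic-like cells, and from 0 to 15 for the difference. The share of all genes called moved in these fits as well. With the replicate block the counts were 18 in T-like, 24 in NK-like, 19 in B-like, 17 in plasma-like, 8 in macrophage-like and 15 in dendritic-like cells, against 19, 25, 18, 18, 11 and 19. Fewer of all genes were called with the block in each class, in dendritic-like cells 828 higher and 1186 lower against 1569 and 2102. Same-numbered libraries correlated by 0.0447 at most. With 2 graft libraries centred on their mean, the values for each control mirror each other. They therefore cannot tell whether libraries share an animal. No block could be used with 1 graft library. Among the members named by the stated rule and the summed levels, 3 values changed sign: FKBP4 in endothelial-like cells (-7.15) and in the difference (-4.13) after free RNA was subtracted, and CALR in T-like cells in 1 cluster (-0.30). Of members outside that rule, HSPA5 and HSP90AB1 in T-like cells, not called, turned to -0.16 and -0.21 without TMM scaling. The fibroblast-like comparison could be made at resolution 2.0, where 24 of 32 members were called, and not at resolution 1, with 9 graft cells. The lone graft library, free RNA of up to 34.5% of the AT2-like SFTPC level, and control classes of 44 to 200 cells limit the structural results.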

Other observations

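With the IRI CD45- library in place of the IRI CD45+ libraries, chosen after the data were seen, edgeR called 8 cytosolic members lower and 2 higher in NK-like cells and 7 ER members higher and 0 lower, where 18.2% of all genes were lower and 14.4% higher. In B-like cells it called 9 cytosolic members lower and 0 higher (14.5% of all genes lower), in plasma-like cells 10 and 0 (6.83%), and in dendritic-like cells 9 and 0 (9.69%). ER members in dendritic-like cells were called higher for 4 and lower for 0 (8.22% of all genes higher). The AT2 markers of NK-like cells summed to 22641 UPM in that library and to 22.9 to 29.0 in the controls, and the part of free RNA in these counts was not tested.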
